A study of Anolis carolinensis with 142 samples.

Results

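The eyes of 16 adult green anoles (*Anolis carolinensis*), day-active lizards caught in the wild, were compared between a dark night and midday by RNA sequencing. The Midnight group held 4 males and 4 females dissected between 22:30 and 00:42 under a red torch, and the Midday group held 4 males and 4 females dissected between 12:48 and 13:45. These 16 libraries, chosen by their titles, were part of 142 libraries from 7 tissues and 3 treatments. All animals carried the label WT, each gave a single eye library, and treatments had been drawn at random. The ALAN group, sampled in the same hours and under the same torch but after artificial light at night, is used below only for levels set beside the others. All libraries carried the same batch label, and the labels do not say which layers of the eye were taken.

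The vertebrate retina holds a circadian clock of its own, a loop of transcription factors and their inhibitors whose transcripts rise and fall over the day. Photoreceptors use it to prepare for light and dark, and in many vertebrates they also make melatonin at night. A sample at 2 times of day measures the difference between those times and not the phase or amplitude of a rhythm. The eye was read as bulk tissue, in which cell types are mixed, so fewer cells of a type and less RNA per cell cannot be told apart.

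The table of counts identifies genes by Ensembl ID only, and 0 of its 26479 IDs matched the gene table used for names. No gene is therefore named here, no gene list of the clock, of vision or of eye cell types could be examined, and 4 IDs are described, 2 in each direction. The tissue label could likewise not be checked against markers. From these same libraries, 207 genes were listed whose level in eye was at least 8 times that in every other tissue. By that choice they were high in eye, and they held 4.41% to 14.5% of the counts in the 16 eye libraries and at most 0.118% in any library of another tissue, which is a description and no check of the label.

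Total counts ran from 10826635 to 11975124 in 14 libraries, 7 of each group, and were 21560852 and 21401749 in the others, Midnight male 1 and Midday female 4. The same 2 libraries differed in how counts fell on even numbers. Of their counts from 1 to 20, 61.4% to 62.4% were even, against 40.5% to 42.5% in the 14, so the counting class was balanced between the groups. Midday male 1 stood apart from the rest: its median Spearman correlation with the other libraries was 0.929, where the other 15 libraries had values from 0.955 to 0.980. Midday libraries were also more unlike each other than Midnight libraries were. The median standard deviation of a gene's log2(CPM + 1) was 0.22 at Midnight and 0.30 at Midday, and 0.27 at Midday without male 1 (CPM, the count scaled to a common library total).

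Of 16228 genes tested, 138 were higher and 159 lower in Midnight than in Midday eyes, together 1.83% of the genes tested (0.85% higher and 0.98% lower; edgeR's quasi-likelihood test with sex as a covariate, Benjamini-Hochberg adjusted p under 0.05, which is what "called" means below). Among the called genes, the 2 directions differed in size and in level. The genes that rose changed by a median of 0.53 on the log2 scale, and 26 of the 138 changed at least 2-fold. The genes that fell changed by a median of -0.89, and 72 of the 159 changed at least 2-fold. The median standard error of the log2 change was 0.11 for those that rose and 0.16 for those that fell. This error was computed as the absolute log2 change divided by the square root of the F statistic. Called genes have a high F statistic, so among them the error is tied to the change and is no separate measure of precision. A call needs a larger change where precision is lower, so the sizes of called genes also depend on precision. Over all genes tested, the median absolute log2 value was 0.16. Within the 14 libraries of the mostly odd class 120 genes were called, 114 of them among the 297, and all 297 kept their direction. The count was 165 without Midday female 2 and 577 without Midday female 3, the extremes when each library was left out in turn.

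The genes that rose stood mostly at moderate to high levels, with a median of 47.4 CPM over the 16 libraries, against 18.3 CPM for those that fell and 19.8 CPM for all genes tested. Among genes at 1 to 10 CPM, 0.30% were called higher and 1.08% lower at Midnight. Among genes over 100 CPM the order was the other way, with 1.36% called higher and 0.635% lower. Precision rose with level: the median standard error of a log2 value was 0.24 at 1 to 10 CPM and 0.09 over 100 CPM. For 83 genes (0.511% of those tested) all 8 libraries of one group lay beyond all 8 of the other, and of these 42 were called higher and 38 lower at Midnight.

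**Figure D1:**
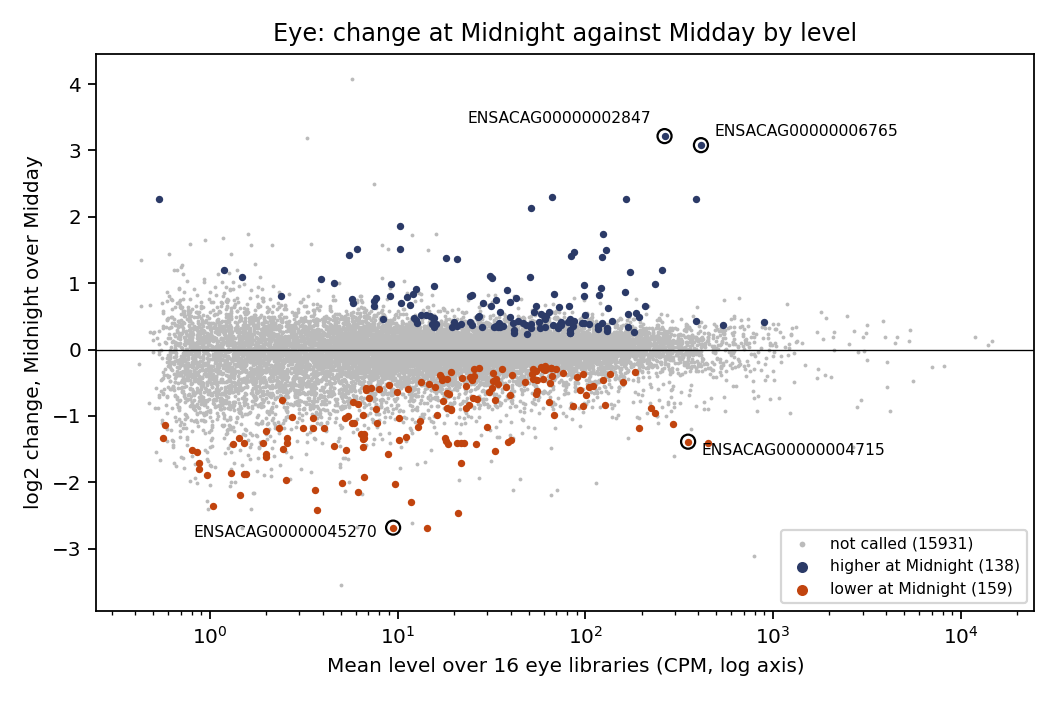
Each point is 1 of 16228 genes, by its mean level over the 16 eye libraries (CPM, log axis) and its log2 change at Midnight over Midday, with the 138 genes called higher in blue, the 159 called lower in orange and the 4 IDs described in the text circled. Genes called lower reach large changes at low levels, while most genes called higher lie above 10 CPM.

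ENSACAG00000002847 had the largest rise of all called genes. Its 8 exons span bases 69322100 to 69337242 of chromosome 6, on the minus strand (the genome build is not given in the sources used here). Its lowest, median and highest levels were 394, 482 and 524 CPM in the 8 Midnight eyes, against 38.9, 48.1 and 80.9 CPM in the 8 Midday eyes. Every Midnight eye was thus far above every Midday eye, and the Midnight values were close together. The rule by which IDs were chosen required that the groups not overlap. The mean was 477 ± 41.0 CPM at Midnight and 52.1 ± 14.9 CPM at Midday (SD, n = 8 each), a log2 change of 3.22 ± 0.12 (SE, edgeR adjusted p = 1.15e-10).

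ENSACAG00000006765 had the largest difference in CPM among the genes that rose and whose groups did not overlap. It has 8 exons on chromosome 2 (69871321 to 69884228, plus strand). Its lowest, median and highest levels were 644, 749 and 802 CPM at Midnight, against 43.3, 81.0 and 150.0 CPM at Midday. All Midnight values were far above the Midday values, and the lowest Midday value came from male 1, the library that stood apart. The mean was 738 ± 59.4 CPM at Midnight and 88.7 ± 30.3 CPM at Midday (SD, n = 8 each), a log2 change of 3.08 ± 0.16 (SE, edgeR adjusted p = 1.46e-08).

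ENSACAG00000045270 fell most among the called genes that averaged 5 CPM or more and whose groups did not overlap. It has 4 exons and lies on an unplaced scaffold (1067495 to 1071267, plus strand). It was low at night in every animal, with a lowest, median and highest level of 1.87, 2.54 and 3.25 CPM at Midnight, against 8.20, 13.1 and 26.6 CPM at Midday. The Midday eyes were spread widely, and the 3 highest were female 4, female 2 and male 1 at 26.6, 26.5 and 22.0 CPM. The mean was 2.59 ± 0.52 CPM at Midnight and 16.4 ± 7.48 CPM at Midday (SD, n = 8 each), a log2 change of -2.68 ± 0.28 (SE, edgeR adjusted p = 4.30e-05). The lowest Midnight library held 21 counts of this gene.

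ENSACAG00000004715 had the largest difference in CPM among the genes that fell and whose groups did not overlap. It has 26 exons on another unplaced scaffold (436128 to 468776, minus strand). Its lowest, median and highest levels were 149, 194 and 248 CPM at Midnight, against 348, 529 and 626 CPM at Midday. All Midnight values lay below the Midday values, and the lowest Midday value, nearest to Midnight, came from male 1. The mean was 196 ± 37.0 CPM at Midnight and 510.5 ± 101 CPM at Midday (SD, n = 8 each), a log2 change of -1.39 ± 0.12 (SE, edgeR adjusted p = 5.34e-06). No other annotated gene overlapped any of the 4 IDs in position. Each was called, with its direction kept, with every single library left out in turn.

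**Figure D2:**
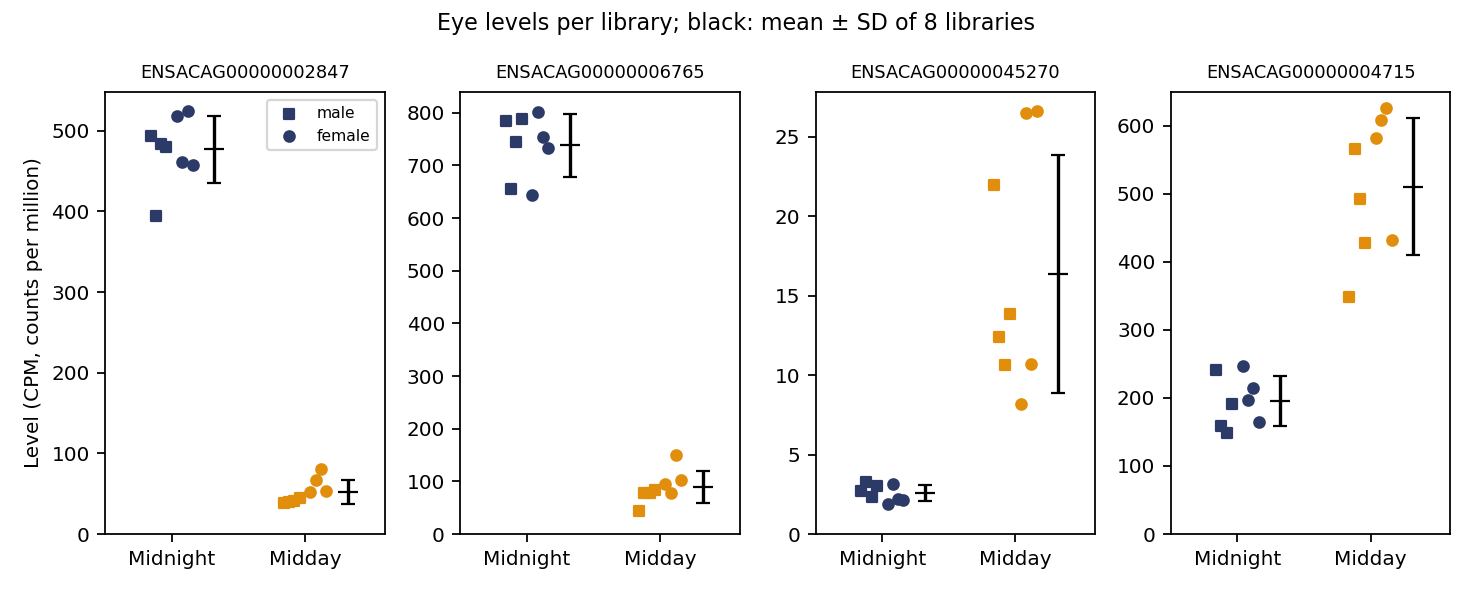
Level of 4 IDs (CPM) in each Midnight and Midday eye library, with males as squares, females as circles and the mean ± SD of 8 libraries in black. Midnight lies above Midday without overlap for the 2 IDs on the left, and below it without overlap for the 2 on the right. The choice of IDs required this lack of overlap.

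In the lit night, the mean of each of the 4 IDs stood between its Midnight and Midday means. The IDs had been chosen for large changes without overlap, which favours such a place. The ALAN means were 308 ± 39.2 CPM for ENSACAG00000002847 and 516 ± 68.1 CPM for ENSACAG00000006765 (SD, n = 8). They were 5.50 ± 2.91 CPM for ENSACAG00000045270 and 312 ± 52.9 CPM for ENSACAG00000004715 (SD, n = 8). The ALAN libraries of ENSACAG00000045270 ran from 1.28 to 9.68 CPM and overlapped both groups. Those of ENSACAG00000004715 ran from 273 to 436 CPM and overlapped Midday. For the IDs that rose, the ALAN libraries overlapped neither group. Of the 8 ALAN eye libraries 7 were of the mostly even counting class, against 1 of 8 at Midnight and 1 of 8 at Midday, and the share of this in the levels was not tested.

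The 2 directions also differed in where else in the body their genes were expressed. Of the genes that rose, 46 of 138 (33.3%) had their highest level of all tissues in the eye, against 25 of 159 (15.7%) of those that fell and 14.9% of all genes tested. The eye levels behind this ranking came from these same Midnight and Midday libraries. The shares over all genes were not matched for level, and the genes that rose stood at higher levels. Of the 207 eye-enriched genes, 7 rose and 1 fell, where 0.85% of all genes tested rose and 0.98% fell. The 7 that rose did so by log2 values of 0.41 to 2.28, and their median level was 129 CPM at Midnight and 67.2 CPM at Midday. Among the other tissues, the highest level was in brain for 38.4% of the genes that rose, against 13.2% of those that fell and 29.3% of all genes tested. The highest level was in liver for 36 genes that fell (22.6%), against 5 that rose (3.62%) and 6.72% of all genes tested. It was in skin for 28.3% of the genes that fell, against 15.2% of those that rose and 18.6% of all genes tested.

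Genes enriched in liver, the organ that makes most proteins of blood plasma, gave more of the genes that fell than any other tissue's list. Of 333 liver-enriched genes 212 were tested in the eye, and 24 of them (11.3%) were called lower and 0 higher at Midnight. Most stood at low levels in the eye, with a median of 1.64 CPM at Midnight and 4.16 CPM at Midday, and their median log2 change was -1.30. In the liver itself 22 of these 24 genes had a log2 value above 0, with a median of 0.41, and 1 was called higher at Midnight and 0 lower. Over all genes tested in liver the median was -0.002, with 0.787% called higher and 1.23% lower. The same was not computed over all liver-enriched genes, so this is not shown to be particular to the 24.

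The liver-enriched genes together held less of the Midnight libraries as well. Their share of all counts ran from 0.223% over a median of 0.286% to 0.339% at Midnight, and from 0.309% over 0.377% to 0.631% at Midday. The groups overlapped between 0.309% and 0.339%, and the highest value was that of Midday male 1. The mean share was 0.288 ± 0.0347% at Midnight and 0.412 ± 0.106% at Midday (SD, n = 8 each; two-sided exact permutation p = 9.32e-04, adjusted over 7 shares p = 0.00653). Within the 14 libraries of the mostly odd class the difference was -0.103 percentage points (exact permutation p = 0.0245 adjusted), and without Midday male 1 it was -0.0931. In brain libraries of the same treatments, the share of these genes was 0.228 ± 0.014% at Midnight and 0.258 ± 0.025% at Midday (SD, n = 8 each). In dorsal skin the mean went the other way, with 0.643 ± 0.453% at Midnight and 0.521 ± 0.117% at Midday (SD, n = 8 each). In ventral skin it was 0.720 ± 0.740% at Midnight (SD, n = 8) and 1.23 ± 2.02% at Midday (SD, n = 7). These differences in brain and skin were not tested. Whether the sampling of other tissue with the eye had a part in this was not tested. Without the 24 genes, 135 genes fell, with a median log2 change of -0.76.

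The shares of the other groups of genes did not pass this test. Skin-enriched genes held 0.162 ± 0.031% of the counts at Midnight and 0.232 ± 0.089% at Midday (exact permutation p = 0.143 adjusted), with 3 of 94 tested genes called lower at Midnight and 0 higher. Over the 94 genes the median log2 value was -0.51 and 89.4% lay below 0, beside -0.47 and 83.5% over the 212 liver-enriched genes and -0.01 and 51.5% over all genes tested. Genes of the mitochondrial genome held 1.75 ± 0.35% at Midnight and 2.14 ± 0.48% at Midday (exact permutation p = 0.197 adjusted). Of 37 such genes 12 were tested and 0 were called, with 11 of the 12 lower in mean at Midnight (median log2 value -0.46). Brain-enriched genes held 0.209 ± 0.021% at Midnight and 0.183 ± 0.042% at Midday, and eye-enriched genes 9.70 ± 2.93% at Midnight and 8.92 ± 2.58% at Midday (SD, n = 8 each; exact permutation p = 0.249 and 0.672 adjusted). The eye-enriched share varied widely between animals, from 5.65% to 14.5% at Midnight and from 4.41% to 12.5% at Midday.

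**Figure D3:**
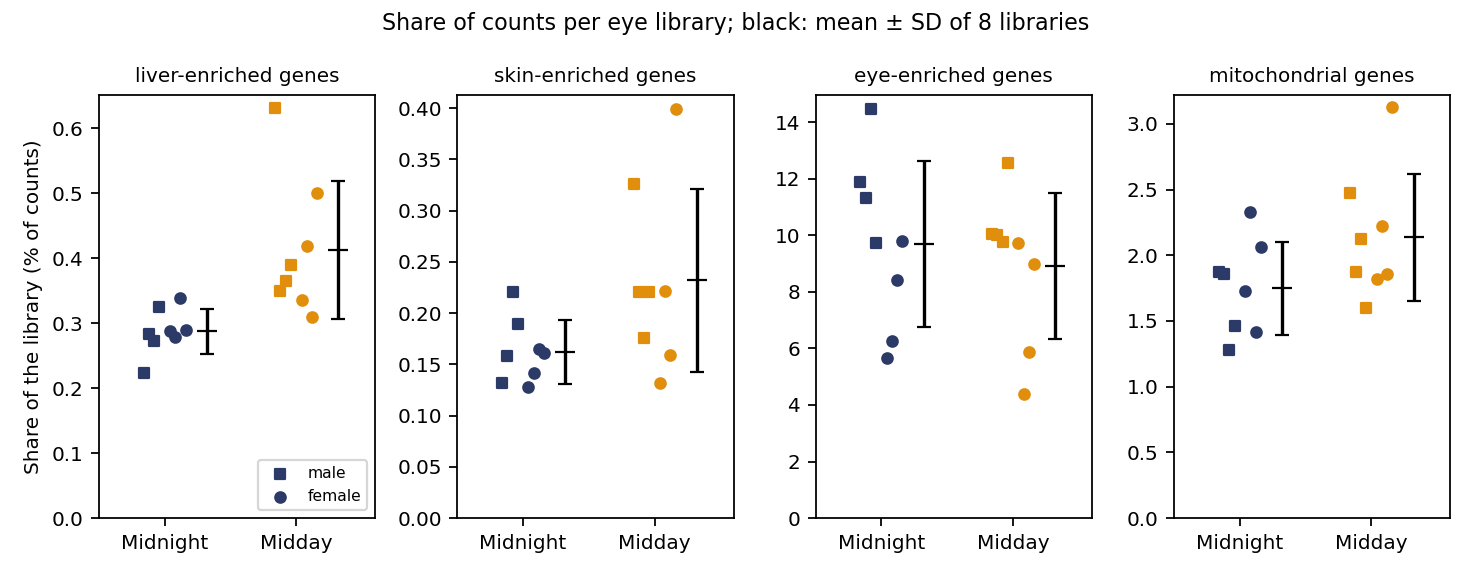
Share of each eye library's counts (%) in genes enriched in liver, skin or eye and in mitochondrial genes, with Midnight left of Midday, males as squares, females as circles and the mean ± SD of 8 libraries in black. For liver-enriched genes the Midnight values reach 0.339% and the Midday values 0.631%.

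Some Midday library must be the highest for each gene that fell, and the same counts were not made over all genes tested. Whether the counts given here are particular to the called genes was not tested. Midday female 2 held the highest Midday level for 38 of the 159 genes, male 1 for 32, female 3 for 26 and female 4 for 23, and the other 4 Midday libraries for 8 to 13 each. Among the genes that rose, Midnight female 2 was the highest Midnight library for 40 of 138 and female 1 for 31. The first principal component of the 16 libraries, with 34.3% of the variance, ran from -1.79 to 38.2 in Midnight and from -75.7 to 31.7 in Midday eyes, with Midday male 1 at the low end. Its mean did not pass the test for a difference between the times (exact permutation p = 0.0789 adjusted over 4 components). The fourth, with 6.21% of the variance, ran from 2.06 to 23.2 in Midnight and from -17.2 to 10.2 in Midday eyes, so the groups overlapped, and its mean differed between the times (exact permutation p = 0.00684 adjusted).

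Males and females changed alike in direction. When the 4 Midnight and 4 Midday eyes of one sex were compared alone, 55 genes were called in males (0.351% of those tested), 21 higher and 34 lower at Midnight. In females 15 were called (0.0965%), 10 higher and 5 lower. Of the 55, 53 could be tested in females, other animals altogether, and all 53 had the same direction there, 39 of them at an unadjusted p under 0.05. All 15 genes called in females had the same direction in males, and 12 genes were called in both sexes. Over all genes tested in both, 66.0% had the same direction in the 2 sexes. An unadjusted p under 0.05 was reached by 6.40% of them in females and 17.1% in males.

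The size of the change was not shown to differ between the sexes. EdgeR called 0 of 16228 genes for a difference between the male and the female change, with 742 at an unadjusted p under 0.05, and DESeq2 called 2. On simulated counts, the edgeR test found 0% of such differences of 0.5 on the log2 scale, 31.3% of 1 and 78.5% of 2. Small differences between the sexes would thus mostly be missed. The rates came from a single simulation with 200 changed genes. Its counts had the same spread at both times and no library that stood apart, unlike these data, so the rates here may differ. Of the genes called with both sexes together, 110 of the 138 that rose and 96 of the 159 that fell changed more in males. Their median log2 change was 0.63 in males and 0.45 in females for those that rose, and -0.86 in males and -0.79 in females for those that fell. How many of all genes tested changed more in males was not counted, so this is not shown to be particular to the called genes. For the genes called in males, the median log2 change was 1.61 in males and 0.86, in the same direction, in females, but these genes were chosen by their change in males. For the genes called in females it was 1.48 in females and 1.62 in males. ENSACAG00000002847 rose by 3.50 ± 0.13 in males and 2.94 ± 0.13 in females on the log2 scale (SE). The difference of 0.56 ± 0.17 did not pass after adjustment over the 16228 genes (edgeR adjusted p = 0.958). ENSACAG00000006765 rose by 3.40 ± 0.21 in males and 2.76 ± 0.20 in females (SE), a difference of 0.63 ± 0.27 that did not pass (edgeR adjusted p = 0.958). The log2 change of ENSACAG00000045270 was -2.39 ± 0.38 in males and -2.99 ± 0.40 in females (SE), a difference of 0.60 ± 0.53 that did not pass either (edgeR adjusted p = 0.958). For ENSACAG00000004715 the difference was 0.17 ± 0.24 (SE, edgeR adjusted p = 0.967). The same adjusted p thus stood beside differences of unlike size relative to their SE.

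**Figure D4:**
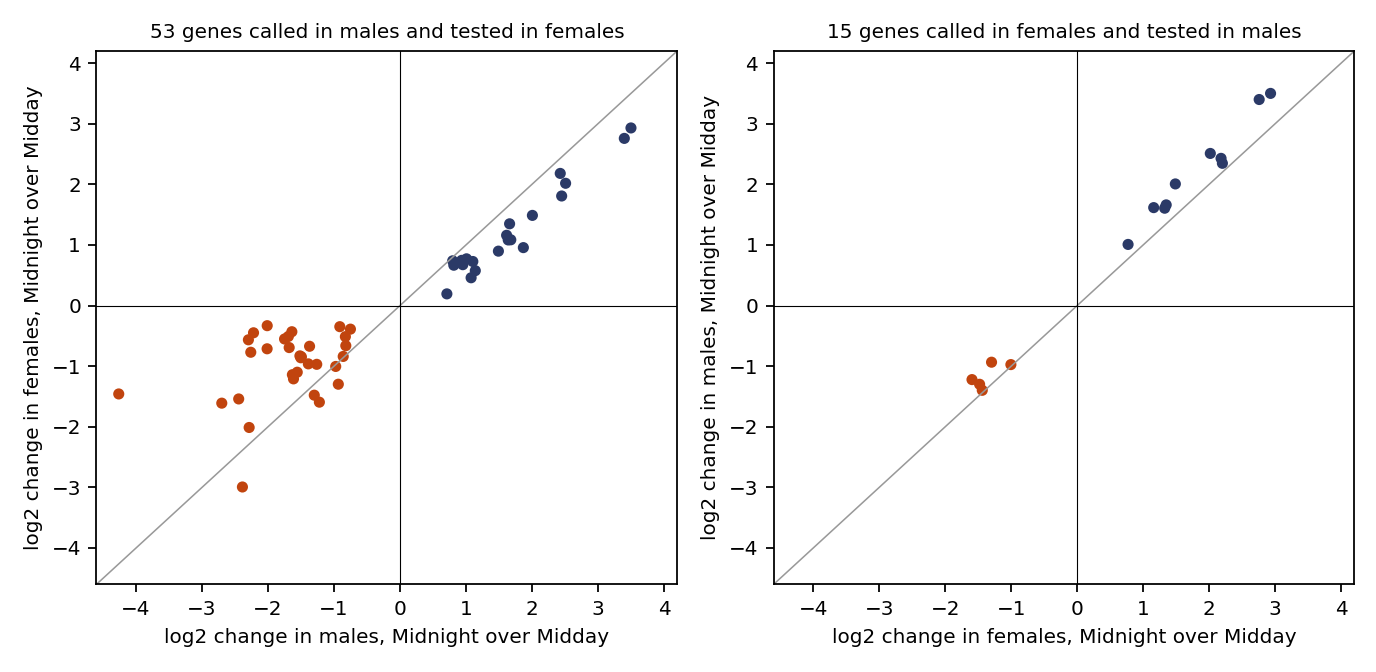
Log2 change at Midnight over Midday of the genes called in males alone against the same genes in females (left), and of those called in females alone against males (right); the grey line marks equal change. All points lie in the quadrants of equal direction.

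Brain shared the direction of most eye genes. Of the genes that rose in the eye, 94 of 131 tested in brain (71.8%) were higher there too, where 63.5% of all genes with a positive eye value were. Of those that fell, 117 of 143 (81.8%) were lower in brain, where 51.8% of all genes with a negative eye value were. In brain 0.908% of 16842 genes were called. The genes called in the same direction in both tissues were 11 that rose (7.97% of the eye list and 31.4% of the brain list) and 35 that fell (22.0% of the eye list and 29.7% of the brain list), and 3 were called higher in eye and lower in brain. The eye and brain libraries came from the same study animals, so the tissues are not independent, while the tests below treat all libraries as independent and hold no term for the animal.

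A direct test of the difference between the tissues called 62 genes (0.347% of 17887), and in 46 of them the eye value was above that of brain. Of the 62, 31 had risen and 15 had fallen in the eye. All brain and liver libraries of these treatments were of the mostly even class, unlike most eye libraries. With the mostly odd eye libraries alone the test called 40 genes, 38 of them among the 62. Both IDs that rose were among the 62. ENSACAG00000006765 stood at 265 ± 30.6 CPM in Midnight and 86.7 ± 8.62 CPM in Midday brains (SD, n = 8 each), a log2 change of 1.62 ± 0.08 (SE), and its eye change exceeded this by 1.47 ± 0.18 (edgeR adjusted p = 1.00e-05). Its Midday means were close in eye and brain, at 88.7 and 86.7 CPM, and its Midnight means were 738 and 265 CPM. ENSACAG00000002847 rose by 1.82 ± 0.13 in brain, 1.41 ± 0.17 less than in the eye (edgeR adjusted p = 1.00e-05).

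The 2 IDs that fell went opposite ways in this test. ENSACAG00000045270 stood at 3.42 ± 0.95 CPM in Midnight and 3.33 ± 0.72 CPM in Midday brains (SD, n = 8 each), a log2 value of 0.05 ± 0.19 that did not pass the test. Its eye change minus that of brain was -2.72 ± 0.34 (log2 ± SE, edgeR adjusted p = 1.53e-05). In liver and in both kinds of skin its mean level was at most 0.329 CPM, too low to be tested there. ENSACAG00000004715 fell more in brain than in eye, to 39.8 ± 6.11 CPM at Midnight, against 219 ± 28.2 CPM at Midday (SD, n = 8 each). Its log2 change in brain was -2.45 ± 0.10 (SE), so that the eye value was higher by 1.08 ± 0.16 (edgeR adjusted p = 3.61e-04). In liver it fell as well, with a log2 change of -2.72 ± 0.32, and the eye value was again higher, by 1.35 ± 0.34 (edgeR adjusted p = 0.0377).

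The same was asked of liver. In liver 2.02% of 14989 genes were called. Of the genes that rose in the eye, 74 of 109 tested in liver (67.9%) were higher there, against 56.7% of all genes with a positive eye value, and 4 were called. Of those that fell, 86 of 141 (61.0%) were lower, against 57.7% of all, and 13 were called. Among genes that fell and were not liver-enriched, 84 of 117 (71.8%) were lower in liver. The liver-enriched genes set aside here had already been seen to go mostly the other way in liver. The same share over all genes that are not liver-enriched was not computed. The direct test called 260 genes (1.45% of 17887), of which 18 had risen and 32 had fallen in the eye. With the mostly odd eye libraries alone it called 98, all among the 260. Of the 32, 19 were liver-enriched genes. The eye change went beyond that of both brain and liver, in its own direction, for 9 genes that rose and 3 that fell. None of them was eye-enriched. That list held only 7 of the 138 genes that rose and 1 of the 159 that fell, so its absence among so few genes shows little.

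**Figure D5:**
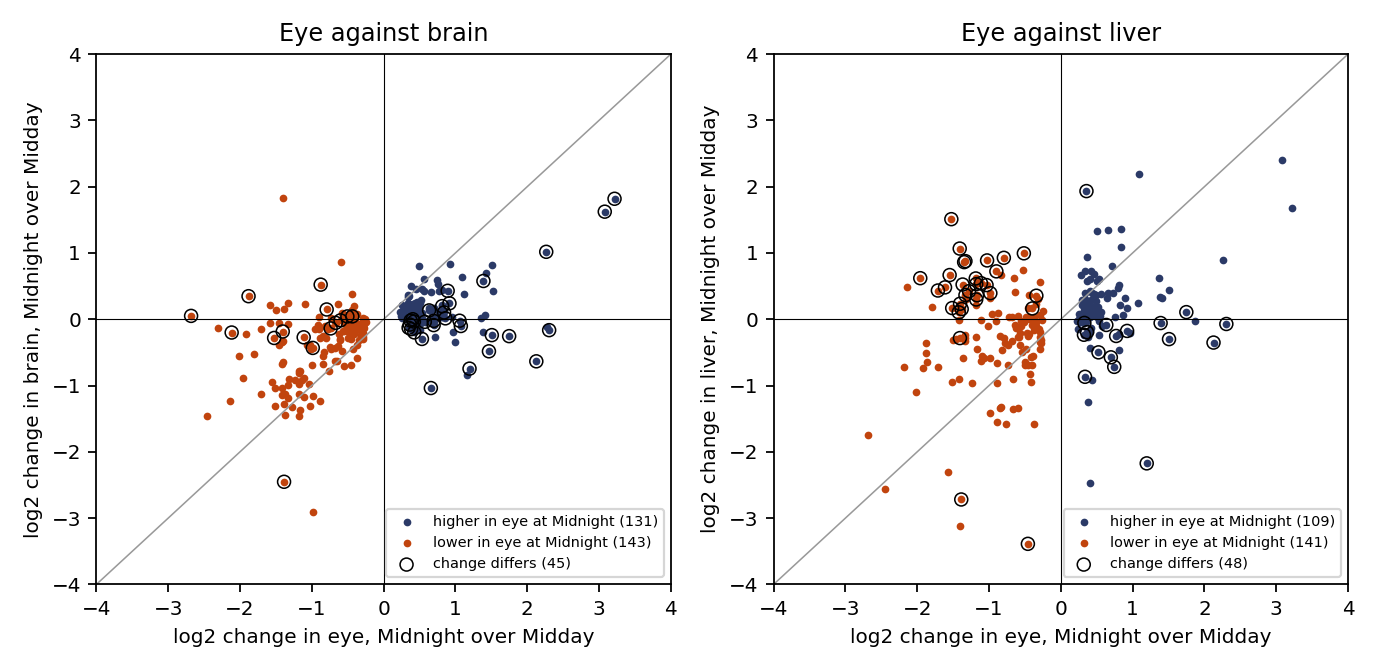
Log2 change at Midnight over Midday in eye (horizontal) against brain (left) and liver (right) for the genes called in eye and tested in the other tissue, blue where higher and orange where lower in Midnight eyes; black rings mark genes whose change differed between the tissues and the grey line equal change. Most orange points lie below 0 in brain, while a group of ringed orange points lies above 0 in liver.

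Few genes were called in skin. In dorsal skin 6 of 8 Midday libraries and 0 of 8 Midnight libraries were of the mostly odd counting class, so there the class and the time cannot be told apart for most libraries. In dorsal skin 0.293% of genes were called and in ventral skin 0.0874%. Of the eye genes, 3 that rose and 9 that fell were called in the same direction in dorsal skin, and 2 that rose and 3 that fell in ventral skin. These were 20.0% of 15 genes called higher and 25.7% of 35 called lower in dorsal skin. In ventral skin they were 20.0% of 10 and 60.0% of 5. The genes shared with liver were 3.39% of 118 and 7.03% of 185. The skin lists were short, so these percentages do not rank the tissues. In ventral skin 119 of the 151 genes that fell in the eye and were tested there (78.8%) were also lower, against 55.0% of all genes with a negative eye value. The other shares in skin lay nearer to those of all genes. In dorsal skin 62.7% of the genes that fell were lower, against 55.0%. Of the genes that rose, 58.6% were higher in ventral and 62.7% in dorsal skin, against 54.9% and 59.2%. ENSACAG00000002847 rose in both, by 2.44 ± 0.23 in dorsal and 2.57 ± 0.25 in ventral skin (log2 ± SE, edgeR adjusted p = 7.85e-05 and 7.11e-04). Of the genes that rose in the eye, 54.1% were higher in testes and 52.5% in ovary, beside 47.6% and 52.7% of all genes with a positive eye value. Of those that fell, 52.7% were lower in testes and 57.2% in ovary. The shares of all genes with a negative eye value were 45.7% and 47.3%. EdgeR called 0 genes of the eye list in either gonad, where 0 genes and 0.0254% of genes were called in all. Each gonad had 4 libraries at each time, fewer than the eye. Of the eye genes, 122 that rose and 148 that fell were tested in testes, and 122 and 145 in ovary. At an unadjusted p under 0.05 stood 13 of these in testes, beside 846 of all 16709 genes tested there. In ovary it was 29 of these, beside 929 of all 15733. No other tool was run on the gonads. Of the 297 eye genes, 123 that rose and 115 that fell were called in the same direction in no other tissue, 13 and 35 in a single one, and 2 and 9 in more (dorsal and ventral skin counted once). Genes not tested in a tissue count here as not called there. Few of all genes tested were called elsewhere, 2.02% in liver, 0.908% in brain and fewer in skin and gonads. These counts thus do not mark genes as particular to the eye.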

How the data were processed

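The authors deposited a table of unnormalized counts of reads per gene, 1 column per library. STAR 2.7.11a, featureCounts, Subread, FastQC and Trimmomatic are named in the submitters' processing notes. The build, the annotation, and the handling of strand and of reads with several positions are not stated, so reads of closely related or overlapping genes may be shared. Genes were tested with edgeR 4.0.16 in R 4.3.3: TMM scaling, a filter on low counts (filterByExpr), robust quasi-likelihood fits of the 16 libraries with a term for sex, and Benjamini-Hochberg adjustment over all genes tested. The change by sex used a mean per treatment and sex, and eye was set against brain and liver in fits of both tissues. Other tissues were fitted alone. Each SE given with an edgeR change was the absolute log2 change divided by the square root of the test's F statistic. It was not estimated separately by the fit. Shares were compared by two-sided exact permutation in scipy 1.17.1. The lists, the comparisons and the named IDs were chosen with earlier results of these data known. The rule for IDs took, per direction, the called gene of largest log2 change and that of largest CPM difference, averaging 5 CPM or more and with no overlap between groups. Enriched genes had at least 5 CPM in a tissue and 8 times that of every other, over Midnight and Midday libraries. The fits were tested on simulated data. Alternatives were RLE size factors, no filter, DESeq2 1.42.0, other terms and sets of libraries. P-values set a difference against the spread between libraries of these animals. In the tests between tissues they treat libraries of the same animals as independent.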

Additional observations from a re-analysis of the deposited data

Results flagged for a closer look

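The change at Midnight over Midday differed between eye and brain for all 4 IDs described, by the test of the difference itself (edgeR). The eye value exceeded that of brain by 1.41 for ENSACAG00000002847 and by 1.47 for ENSACAG00000006765 on the log2 scale. It lay at -2.72 relative to brain for ENSACAG00000045270, and it was 1.08 higher for ENSACAG00000004715, which fell more in brain. For ENSACAG00000004715 the eye value was also 1.35 higher than that of liver. The liver test did not pass for the other IDs. For ENSACAG00000002847 the difference was 1.55 ± 0.43 (log2 ± SE, edgeR adjusted p = 0.0632). That ID was itself called higher in liver, by 1.68 ± 0.41 (edgeR adjusted p = 0.0452). For ENSACAG00000006765 the difference was 0.78 ± 0.62 (edgeR adjusted p = 0.600). For ENSACAG00000045270 it was -0.33 ± 4.08 (edgeR adjusted p = 0.986). These IDs had been chosen for their large change in the eye. In 22 groups of 8 eye libraries examined (levels of the 4 IDs and 7 shares of counts, at each time), 0 were flagged for a library far from the others. Single libraries could still be high without this flag. The highest Midday share of liver-enriched genes was 0.631%, beside a Midday median of 0.377%. The highest Midday level of ENSACAG00000006765 was 150.0 CPM, beside a median of 81.0 CPM.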

How the results depend on the processing

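All 297 genes kept their direction under every alternative fit with both sexes, and 51 of them (26 higher, 25 lower at Midnight) were called in each of those fits. Those fits reuse the libraries that gave the calls, so the kept direction is no independent check. The count was 958 with DESeq2, which held all 297, 720 with the 8 ALAN eye libraries added to the fit, 120 with the 14 libraries of the mostly odd class, 55 in males and 15 in females. Leaving out each library in turn gave 165 to 577 genes, and 139 genes were called each time. It was 170, 171 and 167 without Midnight males 1, 2 and 3, 177 without Midnight female 2, 195 and 197 without Midday males 2 and 4, and 165, 577 and 197 without Midday females 2, 3 and 4. Without Midday male 1, the library that stood apart, it was 216, with 199 of the 297. With the replicate block it was 52, all among the 297. Each animal had a single treatment, so a shared number does not mean the same animal. Of 8 pairs 1 had deviations correlated above 0.1, and 1 of 8 Midnight libraries matched best the Midday library of its number. Whether the numbers follow an order of sampling or processing was not tested. The sex difference gave 0 genes in edgeR alternatives, single omissions and the replicate block included, and 2 in DESeq2. The eye to brain difference gave 173 with DESeq2 and 40 with the mostly odd eye libraries, and the eye to liver difference 698 and 98. The share of called eye genes with the same direction in brain, 77.0%, was 86.8% for those called in males and 66.7% for those called in females; in liver it was 64.0%, and 54.9% and 76.9%. The liver-enriched difference in females alone was -0.0917 percentage points (exact permutation p = 0.0857). The cause of these shifts was not tested. Of the 4 IDs, only ENSACAG00000045270 lost its call, in females alone (log2 -2.99, edgeR adjusted p = 0.0736). The last 2 analyses (directions shared with brain and liver, liver-enriched share) were added after the data were seen. The median standard error of a log2 change was 0.40 under 1 CPM and 0.09 over 100 CPM, and depth was not separated from the spread between animals.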

Other observations

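The genes that changed in the eye lay on all 6 numbered chromosomes and also on unplaced scaffolds. Called genes made up 1.68% to 3.01% of those tested on each numbered chromosome, beside 1.83% over all genes. The highest share was on chromosome 4 (21 higher and 17 lower of 1263). On unplaced scaffolds 49 were higher and 68 lower of 7940 tested genes (1.47%). On linkage group b 0 of 62 tested genes were called, and on linkage group f 1 was higher and 4 were lower of 86. The median exon number was 8 for the genes that rose and 7 for those that fell, against 8 for all genes tested, and the median exonic length was 2165 and 1742 bases, against 1803. Single-exon genes made up 5.07% of those that rose and 8.81% of those that fell, against 6.54% of all genes tested. These differences were not tested. Of 14445 pairs of neighbouring tested genes, 4 were both higher and 9 both lower at Midnight, and 4 went opposite ways. None of the 13 pairs with the same direction overlapped in position, and 8 were on the same strand.

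In 71.1% of the genes tested, the level varied more between the 8 Midday eyes than between the 8 Midnight eyes, and in 64.1% it did so without Midday male 1.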
